A study of Arabidopsis thaliana with 4 samples.

Results

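Class III peroxidases are secreted haem enzymes of plants, encoded in Arabidopsis thaliana by a large gene family. The members described here were 60 loci listed by their locus identifiers, of 33518 loci counted in each library, and 11 of the 60 carry a symbol of their own in the RefSeq annotation (TAIR10.1). A further 13 class III peroxidase loci outside that list were kept apart from the 60. RNA had been sequenced from whole seedlings grown for 5 days on diluted Murashige and Skoog medium in constant light. There were 2 libraries of the wild type Col-0 and 2 of HBI1-Ox, a line with the transgene 35S::HBI1-YFP. This transgene expresses HBI1, a growth-promoting transcription factor of the basic helix-loop-helix (bHLH) type, as a fusion to yellow fluorescent protein from the viral 35S promoter, which is active in most tissues. A single overexpression line was compared, so HBI1 level and other differences of that line cannot be told apart. The labels name no further treatment and leave unstated whether the 2 libraries of each genotype had separate cultures behind them, and the spread that p-values measure may thus be technical.

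Class III peroxidases act mainly in the cell wall and the vacuole. They use hydrogen peroxide to oxidise phenolic substrates, which joins monolignols into lignin and cross-links extensins and so stiffens the wall, and they can also produce reactive oxygen species that loosen it or take part in defence. In Arabidopsis, members are known from lignified vessels, the Casparian strip of the root endodermis, root hairs and the oxidative burst against pathogens.

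Reads on genes ranged from 10785178 to 19647745 per library, and levels are given as CPM, counts per 1000000 reads of library size normalised with TMM (trimmed mean of M values) factors. The overexpressed gene, HBI1, stood at 99.3 and 84.6 CPM in wild type and reached 1567 and 1509 CPM in the line (log2 change 4.06 ± 0.09, edgeR adjusted p = 1.7e-05). The HBI1-Ox libraries were more alike than the Col-0 libraries. Over 56 members with enough reads, the mean chi-square between the Col-0 libraries was 11.1 per gene and 16 members differed between them, beside 8.04 per gene and 2326 of 20074 nuclear genes in all. Between the HBI1-Ox libraries it was 1.85 per gene, and 2 of 54 members differed, beside 1.72 per gene and 64 of 20127 genes in all. Counts of calls are therefore also given with the HBI1-Ox libraries summed into 1 sample. Markers of green tissue summed to 48060 and 48510 CPM in Col-0 and to 55670 and 57670 CPM in HBI1-Ox, while root markers summed to 5944 and 5759 CPM against 3650 and 3599 CPM. Of these, LHB1B1 and PSBO1, of the photosynthetic apparatus, had log2 changes of 0.42 ± 0.05 and 0.46 ± 0.06, and the root genes IRT1 and PYK10 had -1.56 ± 0.07 and -0.70 ± 0.05. PYK10 held most of the root sum, with 5721 and 5516 CPM in Col-0 and 3489 and 3435 CPM in HBI1-Ox. Of 4 tested root markers, 3 were lower (7.15% of all genes). The other, AT5G47450, did not pass (-0.26 ± 0.08, edgeR adjusted p = 0.0674). In whole seedlings, fewer cells of a type and less RNA of a marker gene per cell cannot be told apart.

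Peroxidase genes moved in both directions, with more rises than falls. Of 56 members with enough reads to test, 19 were higher in HBI1-Ox and 9 were lower, and 28 did not pass (edgeR's quasi-likelihood test, with p adjusted by Benjamini-Hochberg over all genes and a threshold of 0.05). The higher members were 33.9% of those tested, against 8.33% of all 20320 tested genes, and the lower members were 16.1%, against 7.15% of all genes. Tested members had a median level of 25.1 CPM, against 15.6 CPM over all tested genes, and the family was chosen with earlier results known. The part of level and of that choice in these shares was not tested. Changes of at least 2-fold were found in 5 higher members (1.28% of all genes) and 5 lower members (2.53% of all genes). The median log2 change was 0.14 over the tested members and -0.01 over all tested genes. With the HBI1-Ox libraries summed, 9 members were higher and 3 lower, against 1.48% and 1.31% of all genes. Without HBI1-Ox library 1 the counts were 7 and 0 (1.17% and 0.903% of all genes), and without HBI1-Ox library 2 they were 8 and 3 (1.40% and 1.07%). The counts reached 26 and 9 without Col-0 library 1 (17.0% and 14.5% of all genes), and 23 and 16 without Col-0 library 2 (14.5% and 13.4%). DESeq2's Wald test called 16 members higher and 7 lower (5.13% and 3.55% of all genes). Scaled by total counts without TMM factors, 15 members were higher and 15 lower (4.90% and 17.2% of all genes), so the higher share of the calls went from 67.9% to 50%, and the median of all genes shifted to -0.16 and that of the family to -0.01.

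**Figure D1:**
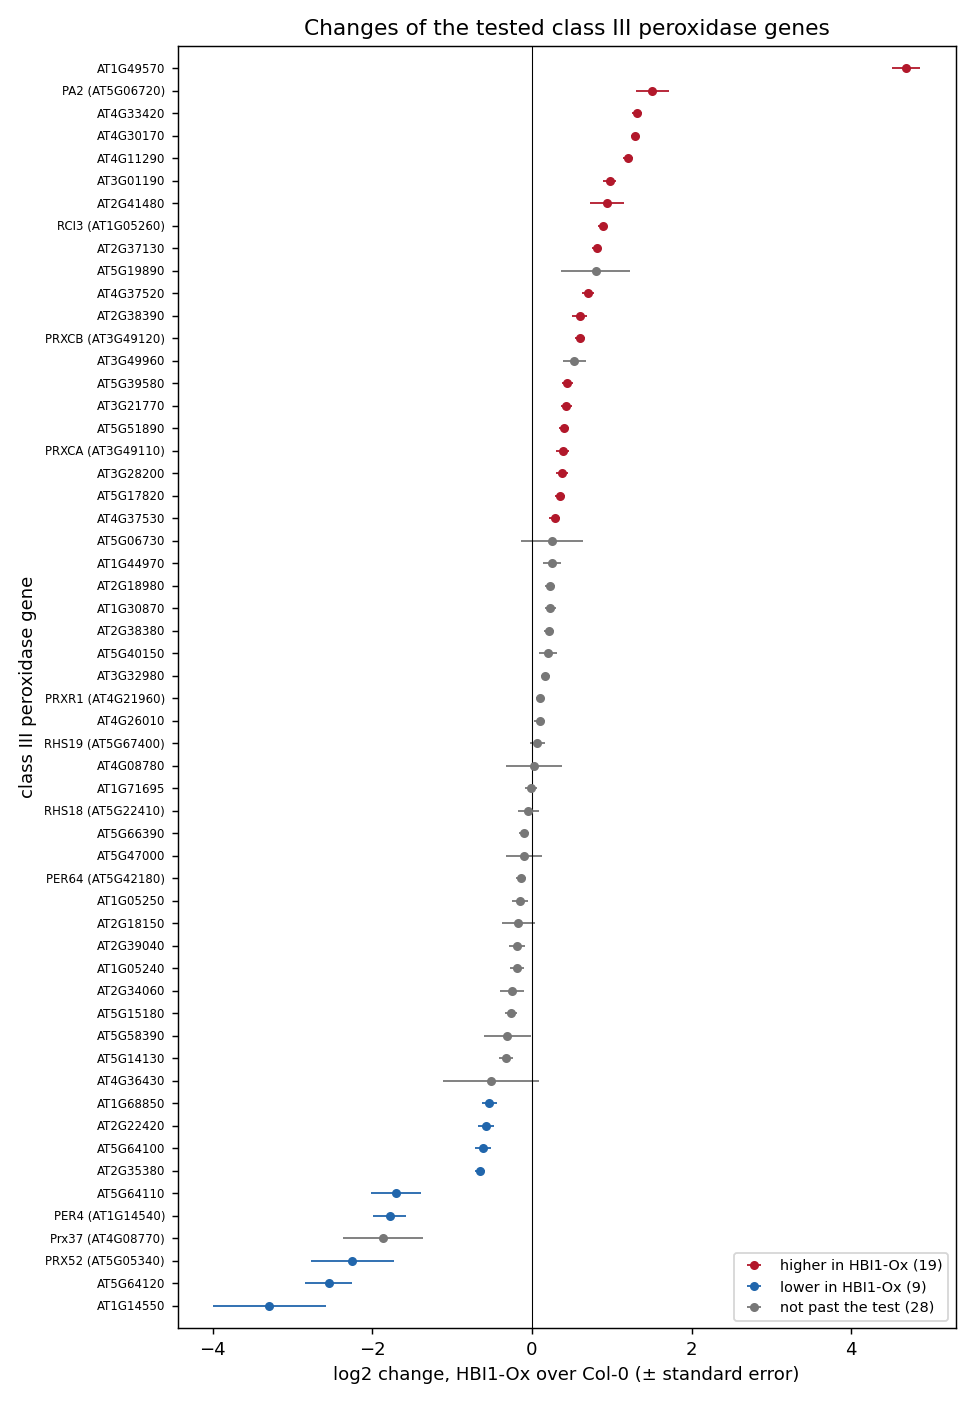
Log2 change of HBI1-Ox over Col-0 (horizontal axis, ± standard error) for the 56 tested class III peroxidase genes, ordered by their change. Red points are the 19 higher members, blue points the 9 lower members and grey points the 28 that did not pass the test; AT1G49570 stands apart at 4.69, and the lowest point is AT1G14550 at -3.29.

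Summed over the 60 loci, the family took 4116 and 4191 CPM in wild type and 5250 and 5102 CPM in the line. The groups did not overlap, and the mean was 1.25 times as high in HBI1-Ox, at 5176 ± 105 against 4153 ± 53 CPM (SD, n = 2 libraries each), with no test. With 2 libraries a side, the smallest p of an exact permutation test would be 0.33. With total counts in place of TMM the ratio was 1.12, and without PRXR1, the member with the most reads, it was 1.29. The 19 higher members together went from 1494 and 1555 CPM to 2670 and 2599 CPM. The 9 lower members went from 474 and 573 CPM to 307 and 294 CPM. These sums describe members sorted by their own changes.

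Levels were uneven among members. Per kilobase of annotated exon and over all 4 libraries, tested members ranged from 0.521 to 483 CPM per kb, with a median of 18.3. PRXR1 (AT4G21960) led with 483 CPM per kb, followed by AT3G32980 with 300 and AT4G30170 with 275. AT2G37130 had 248 CPM per kb, AT5G64100 had 203 and AT5G17820 had 151. The 5 members with the highest normalised levels held 51.0% of the family's CPM, and the top 10 held 70.6%. These most abundant genes did not move alike: PRXR1 and AT3G32980 did not pass the test, AT4G30170, AT2G37130 and AT5G17820 rose, and AT5G64100 fell. PRXR1 had 864 and 839 CPM in Col-0 and 926 and 906 CPM in HBI1-Ox (log2 change 0.11 ± 0.05, edgeR adjusted p = 0.224), and its sign changed with scaling by total counts (-0.05). AT3G32980 had 430 and 442 CPM against 500 and 480 CPM (0.17 ± 0.06, edgeR adjusted p = 0.0926).

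AT1G49570 had the largest change of the tested members. It lies on the plus strand of chromosome 1 (18346958 to 18349049, TAIR10.1), and its annotation names it only as a peroxidase superfamily protein. Reads numbered 12 and 18 in wild type against 583 and 440 in HBI1-Ox, which is 0.886 and 1.56 CPM against 31.4 and 30.9 CPM. Both HBI1-Ox libraries stood far above both Col-0 libraries. The ratio of the summed reads, scaled to library size, was 26.05-fold with a 95% exact counting interval of 18.1 to 38.8, which covers counting error only. The fitted log2 change was 4.69 ± 0.18 (edgeR adjusted p = 9.7e-05). It passed the test in each of the 12 other settings tried. The RefSeq sequence upstream of its annotated start (250 bases, TAIR10.1, given 5′ to 3′ on the strand of the gene) is shown because bHLH factors are known to bind E-boxes. Below, capitals mark E-boxes (CANNTG) and the W-box core (TTGAC or its complement GTCAA), the core that WRKY factors of defence are known to bind. The stretch for AT1G49570 at chr1:18346708-18346957 (plus strand) holds 3 E-boxes and no W-box core.
AT1G49570: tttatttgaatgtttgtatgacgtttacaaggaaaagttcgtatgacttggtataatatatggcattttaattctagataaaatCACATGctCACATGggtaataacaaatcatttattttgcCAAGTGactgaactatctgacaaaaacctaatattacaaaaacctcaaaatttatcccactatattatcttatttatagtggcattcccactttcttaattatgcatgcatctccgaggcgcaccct

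The other rises of at least 2-fold were PA2 and 3 loci without a symbol. PA2 (AT5G06720) is a peroxidase whose level is linked to hypocotyl growth. It had 1.85 and 2.52 CPM in Col-0 and 5.97 and 6.39 CPM in HBI1-Ox, without overlap (log2 change 1.51 ± 0.21, edgeR adjusted p = 0.00552). It missed the threshold when those libraries were summed (edgeR adjusted p = 0.0594). AT4G30170 went from 196 and 198 CPM to 481 and 482 CPM (1.29 ± 0.05, edgeR adjusted p = 0.000125), the largest rise in normalised CPM of any member. AT4G33420, which is linked to the lignification of xylem vessels, went from 36.0 and 37.3 CPM to 91.3 and 90.6 CPM (1.31 ± 0.06, edgeR adjusted p = 0.00015). AT4G11290, a member of the Casparian strip set and a target of the growth regulator UPB1 in roots, went from 22.2 and 22.9 CPM to 53.1 and 50.9 CPM (1.21 ± 0.07, edgeR adjusted p = 0.000239). In the 3 loci without a symbol the libraries of each group lay close together, and the groups were well apart. In PA2 the Col-0 libraries were 1.36 times apart. AT4G33420 overlaps the end of BAK1 on the opposite strand by 78 bp, and BAK1 had a log2 change of -0.09 ± 0.07 (edgeR adjusted p = 0.443). The sources used here do not state whether counting used the strand. The upstream stretch of AT4G33420 (chr4:16084463-16084712, plus strand) is shown for comparison with AT1G49570 and holds 1 E-box and no W-box core.
AT4G33420: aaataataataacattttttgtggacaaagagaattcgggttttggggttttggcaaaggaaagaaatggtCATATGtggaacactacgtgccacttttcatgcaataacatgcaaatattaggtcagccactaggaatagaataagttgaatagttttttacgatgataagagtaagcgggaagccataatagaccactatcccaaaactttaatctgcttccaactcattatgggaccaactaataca

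The largest falls were in genes of low or moderate level, and the Col-0 libraries disagreed in several of them. AT1G14550, next to PER4 on chromosome 1, went from 62 and 16 reads to 5 reads in each HBI1-Ox library. Scaled to library size, the HBI1-Ox reads were 9.79% of the Col-0 reads (95% exact counting interval 4.52% to 19.0%). Col-0 library 1 stood well above Col-0 library 2, and both stood above HBI1-Ox (log2 change -3.29 ± 0.71, edgeR adjusted p = 0.0266). Leaving out Col-0 library 1 gave -2.15, and leaving out Col-0 library 2 gave -3.87. The gene missed the threshold with limma-voom (adjusted p = 0.0537) and after summing the HBI1-Ox reads (edgeR adjusted p = 0.138). AT5G64120, also named PRX71, acts on cell wall strength and in defence. It went from 44.8 and 82.6 CPM to 11.2 and 10.4 CPM, with Col-0 library 2 the higher of the Col-0 pair (-2.55 ± 0.29, edgeR adjusted p = 0.00291). These genes had their higher Col-0 value in different libraries. The upstream stretches of AT1G14550 (chr1:4978672-4978921, plus strand) and AT5G64120 (chr5:25661008-25661257, minus strand) are shown as those of the lower members with the largest changes; they hold 2 and 3 W-box cores, and AT1G14550 also holds 2 E-boxes, of which 1 shares bases with both of its W-box cores.
AT1G14550: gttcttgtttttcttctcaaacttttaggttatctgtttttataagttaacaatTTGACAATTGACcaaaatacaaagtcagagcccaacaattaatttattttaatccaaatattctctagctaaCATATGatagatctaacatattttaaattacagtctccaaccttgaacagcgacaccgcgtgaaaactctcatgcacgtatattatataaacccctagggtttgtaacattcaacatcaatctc
AT5G64120: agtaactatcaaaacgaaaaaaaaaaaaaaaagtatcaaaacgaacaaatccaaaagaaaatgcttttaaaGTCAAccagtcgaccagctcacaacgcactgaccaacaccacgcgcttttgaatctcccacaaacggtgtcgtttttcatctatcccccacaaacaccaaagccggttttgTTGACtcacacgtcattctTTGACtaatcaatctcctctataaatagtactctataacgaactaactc

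Across the family, these motifs were searched on both strands of the 250 bases upstream of each annotated start. An E-box was found in 36 of 60 members, and in 55.3% of 27437 protein-coding genes. The G-box (CACGTG), a form of E-box, was found in 1 of 60 members and in 6.49% of those genes. The W-box core was found in 25 of 60 members and in 44.9% of those genes. Sorted by call, an E-box was present in 16 of 19 higher, 4 of 9 lower and 14 of 28 members that did not pass. The W-box core was present in 6 of 19 higher, 5 of 9 lower and 13 of 28 others. A match of letters is a description of the sequence and does not show binding.

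**Figure D2:**
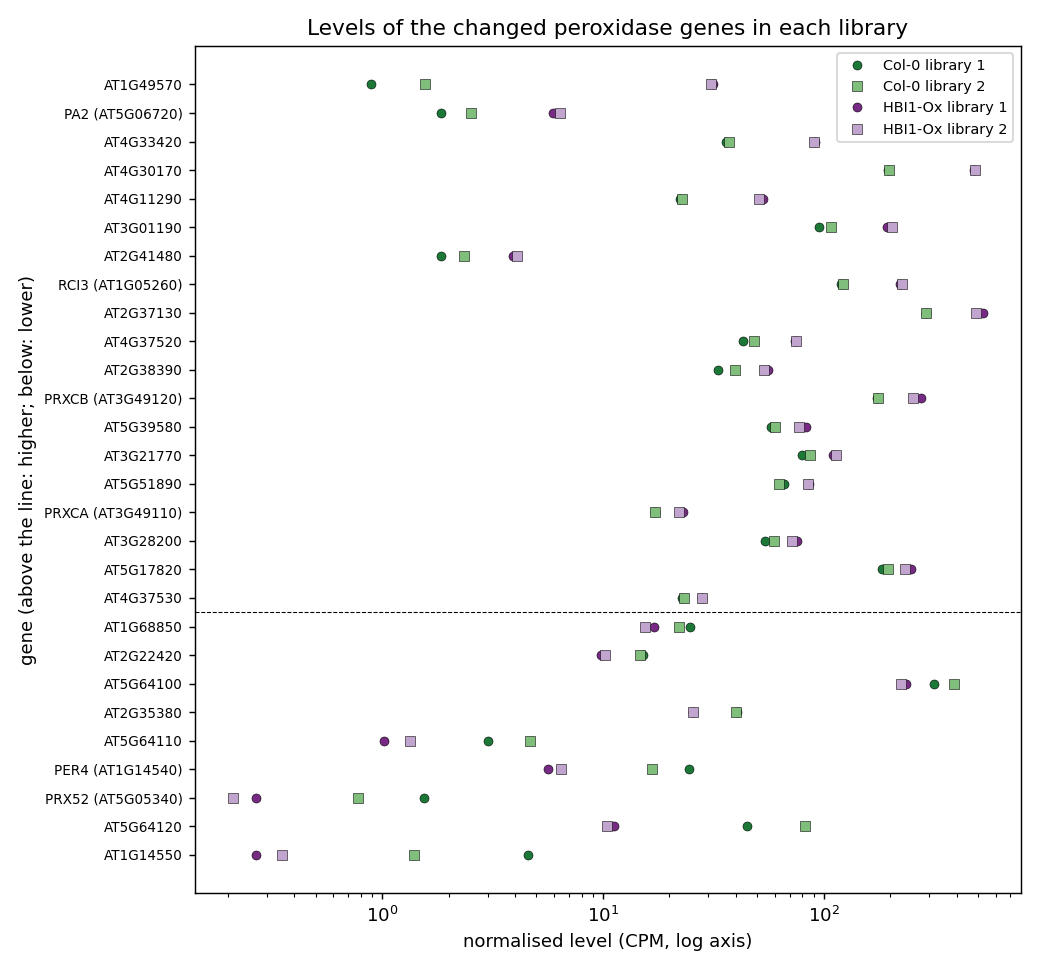
Normalised level (CPM, log axis) of the 28 changed peroxidase genes in each of the 4 libraries, with the 19 higher genes above the dashed line and the 9 lower genes under it. Green symbols are Col-0 and purple symbols HBI1-Ox. The groups are apart in every gene shown, but these genes were picked by a test between the groups. Of all tested genes, HBI1-Ox lay above Col-0 without overlap in 29.7% and under it in 31.0%. The purple pairs mostly coincide while several green pairs of lower genes do not.

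Members linked to lignin and xylem moved both ways. Counts in this and the following lists of members and markers stand beside 8.33% higher and 7.15% lower of all genes. Those with the HBI1-Ox libraries summed, or without either of them, stand beside the smaller shares given above for those fits. Of 9 tested members, 3 rose (AT4G33420, AT2G41480 and AT5G51890), 3 fell (AT5G05340, AT5G64120 and AT2G22420) and 3 did not pass, with a median log2 change of -0.15. With the HBI1-Ox libraries summed, 1 was higher and 1 lower. AT2G41480, also named PRX25, had 1.85 and 2.34 CPM in Col-0 and 3.93 and 4.08 CPM in HBI1-Ox (0.94 ± 0.21, edgeR adjusted p = 0.0322), and AT5G51890 changed by 0.40 ± 0.06 (edgeR adjusted p = 0.00859). PRX52 (AT5G05340), which acts in the lignification of stem fibres, went from 21 and 9 reads to 5 and 3 reads. Scaled, 20.4% was left (95% exact counting interval 8.07% to 45.5%), with a log2 change of -2.25 ± 0.52 (edgeR adjusted p = 0.0339), and it was -1.64 and not past the test without Col-0 library 1 (edgeR adjusted p = 0.104). AT2G22420 went from 15.2 and 14.7 CPM to 9.79 and 10.3 CPM (-0.58 ± 0.10, edgeR adjusted p = 0.0135), and its libraries agreed within each group. With DESeq2, AT2G41480, PRX52 and AT2G22420 did not pass (adjusted p = 0.225, 0.173 and 0.103). AT5G66390, also named PRX72, a lignin peroxidase of the stem, did not pass (-0.10 ± 0.06, edgeR adjusted p = 0.365). Xylem markers were higher in HBI1-Ox in 5 of 5 cases (8.33% of all genes), and in 1 of 5 with the HBI1-Ox libraries summed or without either of them. Their sum went from 282 and 266 CPM to 370 and 389 CPM, while the sum of these 9 peroxidases was 302 and 317 CPM against 320 and 313 CPM. Those with the smallest adjusted p were the cellulose synthase genes IRX1 (log2 change 0.95 ± 0.08) and IRX3 (0.71 ± 0.09). The part of xylem amount in these results was not tested.

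In the set of peroxidases known for lignin of the Casparian strip, 2 of 5 rose, none fell and 3 did not pass, with a median of 0.25. Both rises were also called with the HBI1-Ox libraries summed. RCI3 (AT1G05260), a cold-inducible peroxidase, went from 120 and 123 CPM to 222 and 226 CPM without overlap (0.89 ± 0.06, edgeR adjusted p = 0.000335), and AT4G11290 is given above. PER64 (AT5G42180), the member first tied to the strip, had 54.8 and 55.2 CPM in Col-0 and 51.6 and 48.2 CPM in HBI1-Ox (-0.14 ± 0.07, edgeR adjusted p = 0.218). PER64 was among the members lower with scaling by total counts, and AT5G66390 was too. Endodermis markers went the other way from RCI3: 3 of 6 tested were lower, none was higher, and the sum went from 195 and 200 CPM to 175 and 165 CPM. CASP2 and CASP4, scaffold proteins of the strip, fell by 0.33 ± 0.06 and 0.61 ± 0.15 on the log2 scale (edgeR adjusted p = 0.0193 and 0.0392). None of the endodermis markers was called with the HBI1-Ox libraries summed.

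Members of root hairs and the root surface mostly did not pass. Of 9 tested, 2 rose (AT5G17820 and AT5G39580), 1 fell (AT5G64100) and 6 did not pass, with a median of 0.10, and no call was made with the HBI1-Ox libraries summed. AT5G17820, a target of UPB1 in roots, went from 183 and 195 CPM to 248 and 234 CPM (0.35 ± 0.06, edgeR adjusted p = 0.0149), and did not pass with scaling by total counts (edgeR adjusted p = 0.0724). AT5G39580 went from 58.0 and 60.3 CPM to 83.2 and 77.4 CPM (0.44 ± 0.07, edgeR adjusted p = 0.00825). AT5G64100 went from 315 and 390 CPM to 236 and 224 CPM (-0.61 ± 0.10, edgeR adjusted p = 0.0113). AT5G39580 and AT5G64100 are both known from root hair growth at low temperature, and here they changed in opposite directions. RHS18 and RHS19, named for their root hair specific expression, had log2 changes of -0.05 ± 0.13 and 0.07 ± 0.09, and in both genes the groups overlapped. Root hair markers did not pass in 8 of 8 cases, and their sum was 190 and 173 CPM in Col-0 and 205 and 186 CPM in HBI1-Ox. None of these markers was at 0.

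Members linked to the oxidative burst or to pathogen response were split, with 4 of 9 higher, 3 lower and 2 not past the test (median -0.01). With the HBI1-Ox libraries summed, 2 were higher and 2 lower. PRXCB (AT3G49120) and PRXCA (AT3G49110) encode wall peroxidases that are needed for part of the apoplastic burst after microbial elicitors and for cell elongation. PRXCB went from 174 and 176 CPM to 277 and 254 CPM (0.60 ± 0.06, edgeR adjusted p = 0.00217), and PRXCA, at a lower level, changed by 0.39 ± 0.08 (edgeR adjusted p = 0.0238). The rise of PRXCA missed the threshold in DESeq2 (adjusted p = 0.204). It also missed when TMM factors were left out (edgeR adjusted p = 0.0892), while PRXCB passed in both. AT2G37130, annotated in RefSeq with defence against fungi, went from 290 and 291 CPM to 526 and 492 CPM (0.81 ± 0.06, edgeR adjusted p = 0.000613). These 3 genes were above both Col-0 libraries in both HBI1-Ox libraries. PER4 (AT1G14540), which is known to be induced by flagellin, went the other way, from 24.6 and 16.7 CPM to 5.65 and 6.46 CPM (-1.78 ± 0.21, edgeR adjusted p = 0.00304). Prx37 (AT4G08770), known for a dwarf phenotype when overexpressed, had 13.1 and 4.51 CPM in Col-0 and 2.10 and 2.88 CPM in HBI1-Ox. Its groups did not overlap, but the Col-0 libraries were 2.91 times apart, and it did not pass (-1.87 ± 0.50, edgeR adjusted p = 0.0528). It passed with DESeq2 (adjusted p = 0.0044), with no low-count filter, with total counts, among other settings, and without Col-0 library 1 or 2, where the log2 change was -0.87 or -2.43.

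Among 7 members linked to growth of roots, leaves or hypocotyls, which share 6 genes with the lists above, 5 rose, 1 fell and 1 did not pass (median 0.39). With the HBI1-Ox libraries summed, 2 were higher and 1 lower. The rises were PRXCA, PRXCB, PA2, AT4G11290 and AT5G17820, and the fall was AT5G64120. Of these rises, PRXCA was not called by DESeq2, and neither PRXCA nor AT5G17820 was called when TMM factors were left out. UPB1 (AT2G47270), a bHLH factor known to repress peroxidase genes in the root tip, went from 121 and 82 reads to 680 and 535 reads (log2 change 2.20 ± 0.11, edgeR adjusted p = 0.00018). Both HBI1-Ox libraries stood above both Col-0 libraries, and UPB1 was higher in every alternative that left out or summed libraries.

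The remaining called members have no role in these lists. AT3G01190 went from 94.9 and 108 CPM to 194 and 204 CPM (0.97 ± 0.08, edgeR adjusted p = 0.000846). AT4G37520 went from 43.0 and 48.4 CPM to 74.1 and 74.7 CPM (0.70 ± 0.08, edgeR adjusted p = 0.00237), and AT2G38390 from 33.1 and 39.6 CPM to 55.8 and 53.9 CPM (0.60 ± 0.09, edgeR adjusted p = 0.00897). In these 3 genes both HBI1-Ox libraries were above both Col-0 libraries. AT3G21770, AT3G28200 and AT4G37530 had the smaller rises of 0.43 ± 0.07, 0.37 ± 0.07 and 0.29 ± 0.07. Of these, AT4G37530 did not pass with DESeq2 (adjusted p = 0.362). Among the falls, AT5G64110 went from 3.03 and 4.68 CPM to 1.02 and 1.34 CPM (-1.71 ± 0.31, edgeR adjusted p = 0.0162), and AT2G35380 from 40.5 and 40.1 CPM to 25.5 and 25.7 CPM (-0.65 ± 0.06, edgeR adjusted p = 0.00142). AT2G35380 had libraries that agreed closely in both groups, while those of AT5G64110 were 1.55 times apart in Col-0. AT1G68850 had a log2 change of -0.53 ± 0.10 (edgeR adjusted p = 0.0164).

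Some peroxidase genes lie side by side. In the annotation, 20 members form 9 runs with no other protein-coding gene between them. Only runs with several called members could hold calls in both directions. Those runs are given first, and each moved in a single direction. AT5G64100, AT5G64110 and AT5G64120 on chromosome 5 all fell, by log2 changes of -0.61, -1.71 and -2.55. PER4 and AT1G14550 both fell (-1.78 and -3.29), and AT4G37520 and AT4G37530 both rose (0.70 and 0.29). In some other runs a single member was called. RCI3 rose while AT1G05240 (-0.19 ± 0.08) and AT1G05250 (-0.15 ± 0.10) did not pass. PA2 rose while AT5G06730 (0.26 ± 0.39) did not pass, and AT2G38390 rose while AT2G38380 (0.21 ± 0.06) did not. The runs of Prx37, AT5G19880 and AT5G58390 held no call. Neighbours can be similar in sequence, so part of their reads may be shared between them, but the likeness differed among runs. Coding sequences of AT4G37520 and AT4G37530 were 92.4% identical, with a longest identical run of 67 bases. For PER4 and AT1G14550 the values were 72.3% and 19 bases, and for AT5G64100 and AT5G64110 they were 68.7% and 15 bases.

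**Figure D3:**
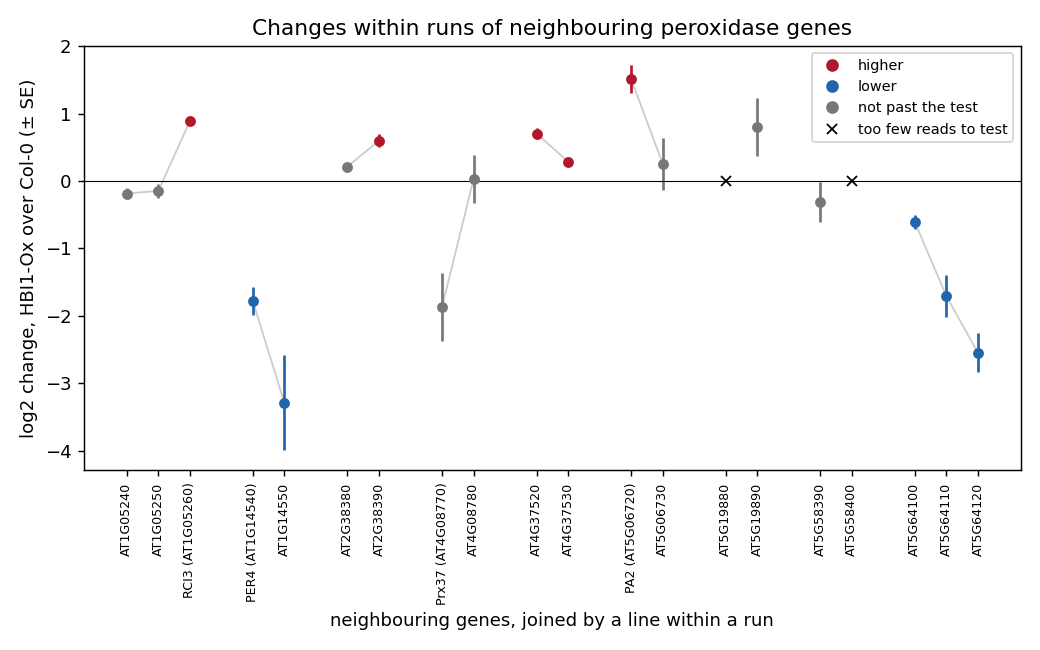
Log2 change of HBI1-Ox over Col-0 (vertical axis, ± standard error) for the 20 members that lie next to another member, with lines joining the genes of a run in chromosome order. The run of AT5G64100, AT5G64110 and AT5G64120 lies under 0 throughout (-0.61, -1.71 and -2.55). No run has both a red and a blue point, which was possible only in runs with several called members. Crosses are genes with too few reads to test and carry no value.

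Members were compact genes with coding lengths of 948 to 1119 bp, and 41 of 60 have 4 exons. Coding sequences of the closest pairs were nearly the same, which leaves the division of reads between them uncertain. AT1G05240 and AT1G05250 are identical over 978 coding bases, AT4G08770 and AT4G08780 share 93.8%, AT4G37520 and AT4G37530 share 92.4%, and PRXCA and PRXCB share 90.4%. Over all members the identity to the nearest other member had a median of 72.3% and reached down to 53.5%, and 15 members had a partner at 80% or more. When copies at 80% or more were summed before the fit, a setting chosen after seeing the data, 17 genes were higher and 9 lower (8.33% and 7.13% of all genes). The sum of AT4G37520 and AT4G37530 had a log2 change of 0.58 ± 0.07 (edgeR adjusted p = 0.00307), and that of PRXCA, PRXCB and AT3G32980 had 0.31 ± 0.06 (edgeR adjusted p = 0.0153). The genes with the largest changes, AT1G49570 and AT1G14550, have nearest members at 57.6% and 72.3% identity.

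**Figure D4:**
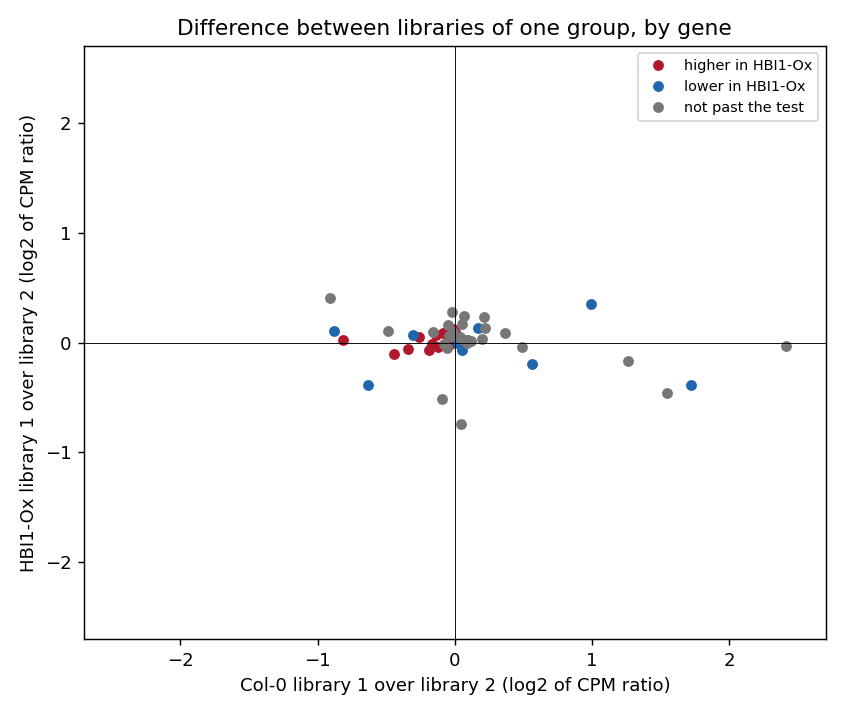
Difference between the libraries of a group for each tested member, as the log2 ratio of CPM in library 1 over library 2, for Col-0 (horizontal axis) and HBI1-Ox (vertical axis). Points spread more along the Col-0 axis: 4 tested members were over 2 times apart between the Col-0 libraries and 0 between the HBI1-Ox libraries.

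The Col-0 libraries were over 1.5 times apart in 4 of the 9 lower and 1 of the 19 higher members. AT4G36430, linked to lignin in the list above, showed the widest gap, with 15.7 and 2.95 CPM in Col-0 and 6.67 and 6.82 CPM in HBI1-Ox. The HBI1-Ox libraries lay between the Col-0 libraries, and the gene did not pass (-0.51 ± 0.60, edgeR adjusted p = 0.615). Without Col-0 library 1 its log2 change was 1.20, and without Col-0 library 2 it was -1.22, and it passed in both cases, in opposite directions. In all, both HBI1-Ox libraries stood above both Col-0 libraries in 29 tested members (29.7% of all genes) and under both in 19 (31.0% of all genes), and the groups overlapped in 8. The 28 members that did not pass had log2 changes from -1.87 (Prx37) to 0.80 (AT5G19890), with 15 negative and 13 positive.

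Of the 60, 4 members had too few reads to test. AT3G50990, also named PER36 and known from the seed coat, and AT4G17690 had 0 reads in each library, where a count of 0 allows up to 3 reads. AT5G58400 had a single read, in HBI1-Ox library 2. AT5G19880 went from 22 and 6 reads to 4 and 1 reads, a scaled ratio of 13.6% (95% exact counting interval 4.11% to 35.8%), and was lower in the fit without the low-count filter (edgeR adjusted p = 0.0232). Of the 13 peroxidase loci outside the 60, 6 were tested and none was higher or lower (median -0.13). Without a low-count filter AT3G17070 of these was higher (edgeR adjusted p = 0.036).

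Genes that supply or share the work of the peroxidases are given beside the shares of all genes, 8.33% higher and 7.15% lower. Their counts with the HBI1-Ox libraries summed stand beside the smaller shares given above for that fit. Among NADPH oxidases, which make the superoxide from which peroxidases draw hydrogen peroxide, 1 of 8 tested genes rose, 3 fell and 4 did not pass (median -0.27). RHD2, the oxidase of root hair tips, went from 19.3 and 19.0 CPM to 31.3 and 33.2 CPM (0.75 ± 0.07, edgeR adjusted p = 0.00162), and RBOHA had a log2 change of -1.49 ± 0.24 (edgeR adjusted p = 0.00898). With the HBI1-Ox libraries summed, only the rise was called. Among 18 enzymes of monolignol synthesis, the source of lignin substrates, 2 rose, 2 fell and 14 did not pass (median -0.01), counts near those shares, and none was called with the HBI1-Ox libraries summed. PAL2, at the entry of the pathway, had a log2 change of -0.44 ± 0.07 (edgeR adjusted p = 0.00738), and the methyltransferase gene OMT1 one of 0.34 ± 0.06 (edgeR adjusted p = 0.0165). Laccases, which also oxidise monolignols but use oxygen, had 2 rises, 4 falls and 8 misses among 14 tested (median -0.35), and 1 rise and no fall with the HBI1-Ox libraries summed. IRX12, of stem lignin, rose by 0.59 ± 0.08 (edgeR adjusted p = 0.00412), and LAC7 fell by 0.54 ± 0.06 on the log2 scale (edgeR adjusted p = 0.00328).

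Classical extensins are wall proteins cross-linked by peroxidases. Of 16 tested, 2 rose, 3 fell and 11 did not pass (median 0.10), and 2 falls and no rise were called with the HBI1-Ox libraries summed. AT1G26250 went from 11 and 10.7 CPM to 0.538 and 0.562 CPM (-4.28 ± 0.20, edgeR adjusted p = 0.000141). Its near neighbour AT1G26240 went from 80 and 47 reads to 1 and 0 reads, a scaled ratio of 0.601% (95% exact counting interval 0.0151% to 3.41%, edgeR adjusted p = 0.000954). Both genes were far lower in both HBI1-Ox libraries, while most other extensins did not pass.

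The authors' deposited table of log2 fold changes lists 1256 rows, and 16 members are among them, 11 higher and 5 lower. In the authors' deposited table AT1G49570 has a log2 change of 4.69 and AT5G64120 one of -2.54. The 16 listed members all passed the edgeR test in the same direction, and the log2 values differed from the fitted ones by at most 0.03. A further 12 called members were not in the authors' deposited table, whose smallest absolute log2 change is 0.56.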

How the data were processed

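Total RNA of whole seedlings was extracted with a Spectrum Plant Total RNA Kit and sequenced from barcoded TruSeq RNA libraries, per the labels' protocols. The authors deposited raw read counts per locus for each library. Per the submitters' processing notes, TopHat, DESeq and the build TAIR10 were used. The sources used here name neither the counter nor its strand setting, nor how reads matching several loci were treated. The counts hold a row for alignments that are not unique, with 0 reads in each library. This does not show how such reads were treated. Rows that belong to no gene held 13.2% to 13.7% of the reads and were left out. A second table that the authors deposited holds log2 fold changes between the genotypes and was used only for comparison.

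Counts of all loci were kept by filterByExpr (minimum count 10, minimum total 15; 20320 genes), scaled by TMM and compared by edgeR 4.0.16 (R 4.3.3; glmQLFit, glmQLFTest; 2 residual degrees of freedom). P-values were adjusted by Benjamini-Hochberg over every tested gene, with 0.05 as threshold. "edgeR adjusted p" denotes this value, and ± after a log2 change is its standard error. Libraries of a group were compared by a chi-square of each gene. Exact counting intervals at 95% cover counting error only. The procedure was tested on simulated data with the same spread in both groups. That test could not show how the unequal agreement of the Col-0 and HBI1-Ox libraries affects the calls. Alternatives were other scalings and filters, DESeq2 1.42.0, limma-voom (limma 3.58.1), summing the HBI1-Ox libraries, omitting single libraries, and a block for the replicate number.

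Names, lengths and upstream sequences came from RefSeq, TAIR10.1, matched by locus (32709 of 33518 loci); coding sequences were aligned with Biopython 1.88. Members and gene lists were chosen with earlier results of these data known. Named members were up to 14 called rises and 14 called falls by absolute log2 change, the 6 with most CPM per kilobase, those failing the filter, and up to 2 called genes per pathway or marker list with the smallest adjusted p, with HBI1; further members and AT3G17070 were named after their values were seen or as examples of a list. Some upstream sequence is not reported here.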

Additional observations from a re-analysis of the deposited data

How the results depend on the processing

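No called member changed direction in the 12 other settings. Of the 19 rises, 7 passed in all of them (RCI3, AT1G49570, AT2G37130, AT3G01190, AT4G11290, AT4G30170 and AT4G33420), and of the 9 falls 0 did. With the HBI1-Ox libraries summed, 9 members were higher and 3 lower, and over all genes 307 and 271, against 1693 and 1452. Leaving out 1 library gave 7 to 26 higher and 0 to 16 lower members, and 242 to 3516 higher and 187 to 3009 lower genes. The lowest counts came without HBI1-Ox library 1 (7 and 0 members) or library 2 (8 and 3), and the highest without Col-0 library 1 (26 and 9) or library 2 (23 and 16). The library left alone in its group is then assumed to vary like the other group. Total counts without TMM factors gave 15 higher and 15 lower members, 995 higher and 3494 lower genes, a family median of -0.015 and a change of -0.046 for AT4G21960. DESeq2 gave 16 higher and 7 lower members and 788 lower genes. The cause of these shifts was not tested. Fits that left out or summed libraries also held fewer libraries. The family median ranged from 0.1 to 0.2 with 1 library left out. With RLE factors, no filter, a filter of 1 CPM or limma-voom, both member counts stayed within 1.5 times. Differences between libraries 1 and 2 had a correlation of 4e-04 between the genotypes. The HBI1-Ox libraries differed little (chi-square 1.72 per gene), so this cannot show whether the numbers pair the samples. With the replicate number as a block, 19 members were higher and 10 lower (7.18% and 6.58% of all genes). The planned summing of copies by protein identity was not run, and coding identity was used in its place. Low counts limit AT1G14550, PRX52 and AT5G19880, each with 5 or fewer reads in every HBI1-Ox library.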
